A study of Homo sapiens with 6 samples.

Results

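The genes described here are 10 interferon-stimulated genes named IFI or IFITM, or coding for related antiviral proteins: IFI6, IFI27, IFI35, IFI44, IFI44L, IFITM1, IFITM2, IFITM3, BST2 and RSAD2. They were chosen by name, as protein-coding genes, from the 58735 genes of the expression table, and all 10 were found in it. RNA-seq was performed in NCI-N87, a human gastric cancer cell line, after stable lentiviral expression of a control construct (shNC) or of an shRNA against SCAMP1 (shScamp1), with 3 biological replicates per group. The study's methods call these populations shCtrl, which carried the empty vector, and shS1#1. Cells of both groups were transduced and selected with puromycin at 2 µg/ml, no interferon treatment is given in the labels, and only 1 of the study's shRNAs against SCAMP1 was sequenced. The comparison asks how expression differs when SCAMP1, a membrane protein of secretory and recycling vesicles, is reduced. Because the control was an empty vector, the presence of an shRNA and the reduction of SCAMP1 occur in the same libraries. Their parts in any difference cannot be told apart.

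Type I and type III interferons bind receptors at the cell surface and act through JAK kinases, which activate a complex that includes STAT2 and IRF9. This complex binds the interferon-stimulated response element (ISRE) in the promoters of its target genes. Many of these targets act at membranes. The IFITM proteins sit in the plasma and endosomal membranes and restrict the entry of enveloped viruses, BST2 (tetherin) holds budding virions at the cell surface, and RSAD2 (viperin) is a radical SAM enzyme anchored to the endoplasmic reticulum and lipid droplets. IFI6 and IFI27 are small hydrophobic proteins of organelle membranes. IFI35, IFI44 and IFI44L are better known as cytoplasmic proteins, so the word membrane does not describe all 10 genes.

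The promoters are shown because an ISRE was the feature that most of these genes shared. RefSeq promoter windows (GRCh38.p14, from 250 bases before to 50 bases after an annotated start site) matched 9 of the 10 genes, with 12 windows in all, and IFITM2 was not matched. The ISRE core was searched on both strands as GAAANNGAAA, and matches occurred in 8 of the 9 genes and in 83.3% of their 12 windows, against 3.57% of all 35116 windows and 2.82% of the 13744 windows of genes tested for expression. IFI35 had no ISRE match in its window. The stretches below run 5′ to 3′ in the direction of transcription, with the match in capitals. Capitals that begin with TTTC are matches on the opposite strand. One match is shown per gene, and the range from IFI6 to RSAD2 covers genes whose expression changed and genes whose expression was not called different.
IFI6 (chr1:27672273-27672332, minus strand): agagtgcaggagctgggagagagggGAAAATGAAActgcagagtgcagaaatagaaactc
IFI27 (chr14:94110616-94110675, plus strand): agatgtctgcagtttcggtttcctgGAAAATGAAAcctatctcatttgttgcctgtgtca
IFI44 (chr1:78649746-78649788, plus strand): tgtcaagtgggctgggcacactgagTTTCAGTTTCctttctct
IFI44L (chr1:78620259-78620318, plus strand): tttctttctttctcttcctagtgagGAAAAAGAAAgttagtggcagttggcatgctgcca
IFITM1 (chr11:313990-314019, plus strand): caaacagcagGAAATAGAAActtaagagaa
IFITM3 (chr11:320876-320905, minus strand): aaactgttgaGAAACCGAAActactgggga
BST2 (chr19:17405726-17405785, minus strand): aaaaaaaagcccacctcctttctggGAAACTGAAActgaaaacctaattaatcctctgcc
RSAD2 (chr2:6877622-6877651, plus strand): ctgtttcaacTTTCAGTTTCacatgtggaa

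IFI6 held 3 of them in its window, and the BST2 matches overlapped by 4 bases. RSAD2 had a match in the window of only 1 of its annotated start sites. A second motif, the gamma-activated site, was searched as TTCNNNGAA on both strands, since interferon gamma acts through it. It was found in 4 of the 9 genes (IFI27, IFI35, IFITM1 and BST2). By windows, it was found in 41.7% of the 12, against 7.66% of all windows. The IFI27 windows overlap and hold the same match. In IFI27, IFITM1 and BST2 a gamma-activated site match overlapped an ISRE match. In IFI35 it was the motif found, 22 bases before the start site.
IFI35 (chr17:43006752-43006780, plus strand): aggcagggatTTCACGGAAatgaaagtgg
These matches describe letters in the windows and not bound sites.

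**Figure D1:**
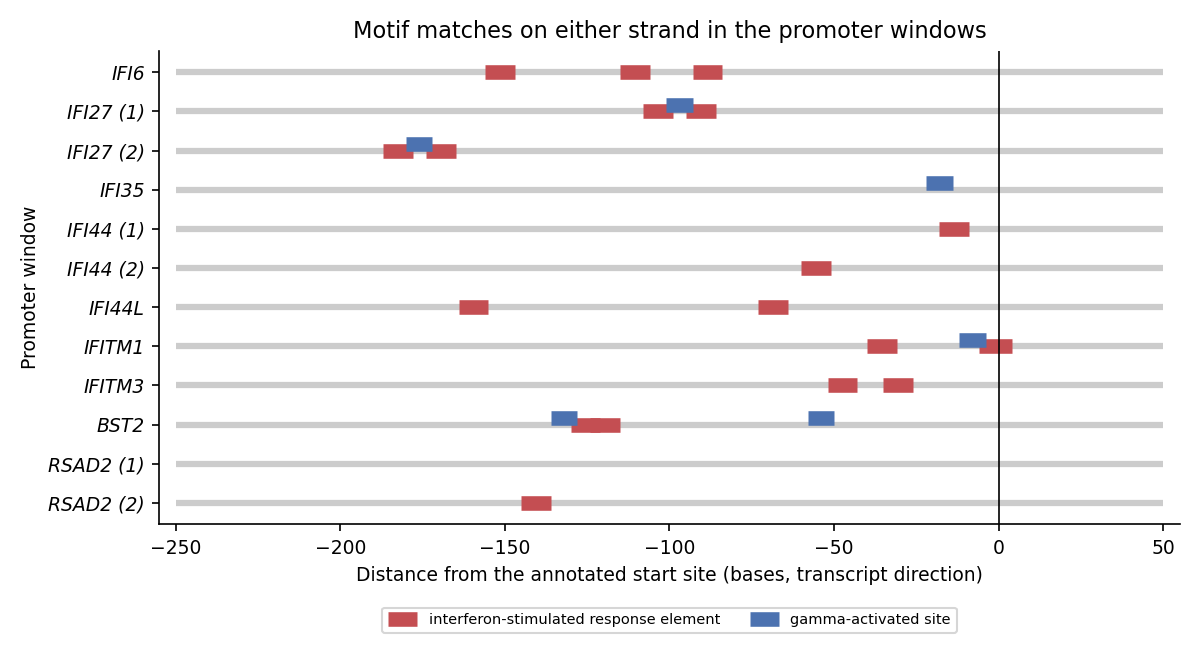
Positions of ISRE and gamma-activated site matches in the 12 promoter windows, with the distance from the annotated start site in bases on the x axis and 1 row per window. ISRE matches appear in 10 of the 12 windows, and the gene names carry a start site each where a gene has more than 1 window.

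Expression values were FPKM (fragment counts scaled by gene length and by library depth). For all 10 genes the length was the union of their annotated exons, so comparing levels between genes depends on this length. In shNC replicate 1, IFI27 and BST2 had 3437 and 3407 reads but 52.3 and 192 FPKM. The libraries held 15064905 to 15988700 reads on genes in shNC cells and 14311769 to 14667628 in shScamp1 cells. SCAMP1 stood at 12.6, 12.1 and 11.5 FPKM in the shNC libraries and at 1.70, 1.37 and 1.99 FPKM in the shScamp1 libraries, so its level fell in every shScamp1 library (log2 fold change -2.78, SE 0.14, adjusted p = 0.000248 by limma). Mitochondrial genes took 9.21% of the reads of shScamp1 replicate 2, against 6.09% to 6.78% elsewhere. The 6 epithelial markers of a gastric line were all tested, with summed levels of 5421 to 5702 FPKM in shNC and 9056 to 10009 FPKM in shScamp1 cells. Of these, 4 were called higher, which were KRT18 (log2 fold change 1.19), KRT8 (0.97), KRT19 (0.75) and CDH1 (0.45), while EPCAM had -0.05 and ERBB2 0.16. The 8 leukocyte markers summed to between 0.403 and 0.711 FPKM over the 6 libraries, with LILRA4 at 0 in all of them, and the 5 fibroblast markers to between 0.487 and 0.773 FPKM, with COL1A2 and DCN at 0. The 3 endothelial markers summed to 0.139 to 0.235 FPKM in shNC and 0.381 to 0.612 FPKM in shScamp1 cells, and the part of this difference in the results was not tested. In bulk RNA, a different number of expressing cells and a different amount of RNA per cell cannot be told apart.

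Of the 10 genes, 9 passed the filter on low values (0.5 FPKM or more, averaged over the 6 libraries), and IFITM2 did not. A gene was called different when its Benjamini-Hochberg adjusted p in limma on log2(FPKM + 0.1), adjusted over all 15556 genes tested, was below 0.05. IFI6, IFI35, IFI44, IFI44L and RSAD2 rose in shScamp1 cells, which is 5 of the 9 tested, against 8.82% of all genes tested. For lower calls the count was 0 of 9 by limma, as it was at an unadjusted p under 0.05 and with voom on recovered reads, against 5.17% of all genes. With a log2 fold change above 1 in addition, 4 genes were called higher, all but IFI35 of these 5, against 2.42% of all genes (0.746% were called lower with a log2 fold change below -1). A positive log2 fold change was found for all 9 genes and for 47.6% of all genes. The groups did not overlap, with shScamp1 higher, for 6 of the 9 genes and for 20.4% of all genes. The median log2 fold change was 1.00 over the 9 genes and -0.02 over all genes tested. The filter shaped this set of 9. RSAD2 averaged 0.434 FPKM in shNC cells and passed through its shScamp1 mean of 3.22 FPKM. IFITM2, at 0.625 FPKM in shNC and 0.374 in shScamp1 cells, averaged 0.49988 over the 6 libraries and was left out. Its log2 fold change with no filter was -0.63. The counts of positive and lower changes and the median over the 9 genes therefore depend partly on the filter. Higher calls made up 63.0% of all calls in the table, but 47.3% when libraries were scaled by total reads and 44.0% with voom.

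**Figure D2:**
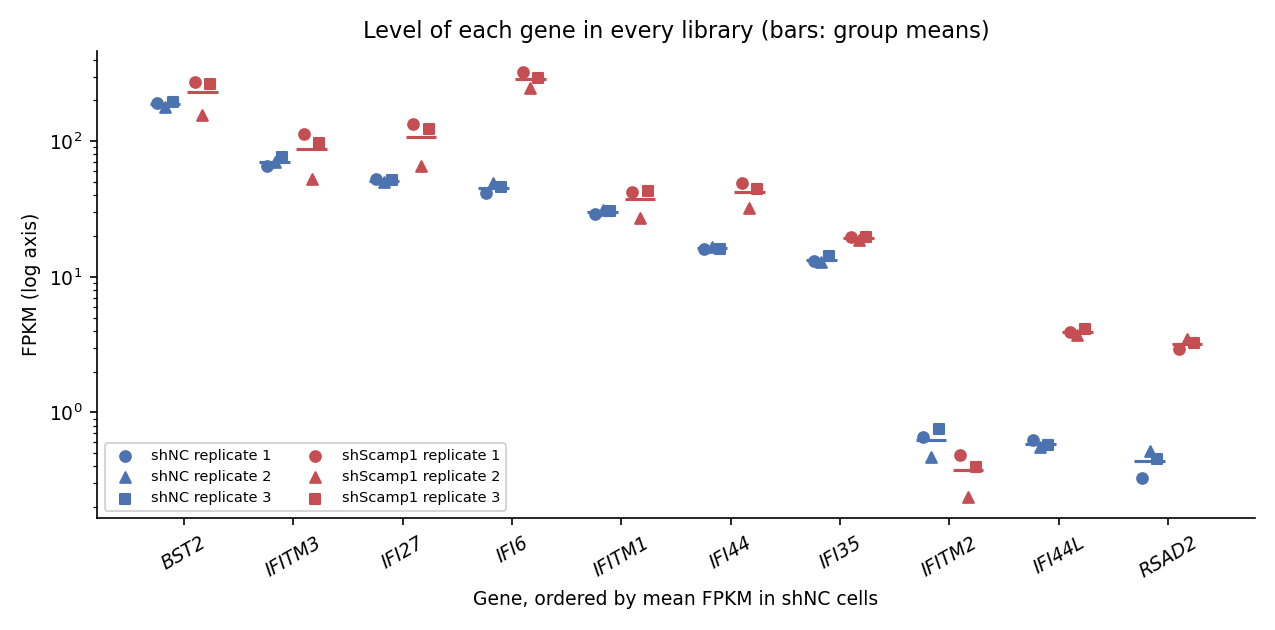
FPKM of the 10 genes in every library on a log axis, with genes ordered by their mean in shNC cells, points for libraries and bars for group means. IFI6, IFI27, IFI35, IFI44, IFI44L and RSAD2 show 3 shScamp1 libraries above all 3 shNC libraries, whereas the libraries overlap for IFITM1, IFITM2, IFITM3 and BST2.

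IFI6 and IFI27 belong to a small family of hydrophobic proteins, and IFI6 is known to hold down flavivirus replication at the endoplasmic reticulum. IFI6 (ENSG00000126709, chr1:27666061-27672218, minus strand) was at 41.3, 49.1 and 45.8 FPKM in the shNC libraries and at 324, 246 and 292 FPKM in the shScamp1 libraries. Every shScamp1 library lay far above every shNC library, and IFI6 passed from the fourth highest level of the 10 genes to the highest mean. The means were 45.4 ± 3.90 and 287 ± 39.3 FPKM (SD, n = 3), a 6.33-fold ratio. The log2 fold change was 2.65 (SE 0.12, 95% interval 2.36 to 2.95, adjusted p = 0.000204, limma).

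IFI27 (ENSG00000165949, chr14:94104836-94116698, plus strand), a mitochondrial and nuclear envelope protein, was at 52.3, 50.2 and 51.4 FPKM in shNC and at 134, 65.6 and 123 FPKM in shScamp1 libraries. The groups did not overlap, but shScamp1 replicate 2 was close to the shNC libraries while replicates 1 and 3 stood well above them. The mean went from 51.3 ± 1.04 to 108 ± 36.8 FPKM (SD, n = 3), a 2.10-fold ratio. With a log2 fold change of 1.00 (SE 0.26, 95% interval 0.36 to 1.64, adjusted p = 0.0549, limma), IFI27 missed the threshold. Its adjusted p ranged from 0.0285 to 0.112 over the alternative settings with all 6 libraries that adjust for multiple tests, and without shScamp1 replicate 2 it was 7.7e-05 with a log2 fold change of 1.32.

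The 3 IFITM genes of the table that are interferon-inducible lie together on chromosome 11, with 4397 bases between IFITM1 and IFITM3. IFITM1 (ENSG00000185885, chr11:313506-315272, plus strand), which acts mostly at the plasma membrane, was at 28.8, 30.9 and 30.8 FPKM in shNC and at 42.5, 27.1 and 43.0 FPKM in shScamp1 libraries. Replicates 1 and 3 of shScamp1 were above all shNC libraries, and replicate 2 was below all of them. The log2 fold change was 0.28 (SE 0.18, 95% interval -0.16 to 0.73, adjusted p = 0.348, limma), with means of 30.2 ± 1.17 and 37.5 ± 9.07 FPKM (SD, n = 3).

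IFITM3 (ENSG00000142089, chr11:319669-327537, minus strand), which acts in late endosomes, showed the same arrangement at a higher level. It was at 65.2, 70.3 and 76.4 FPKM in shNC and at 112, 52.8 and 96.3 FPKM in shScamp1 libraries, with replicate 2 the lowest of all 6. The log2 fold change was 0.24 (SE 0.27, 95% interval -0.43 to 0.90, adjusted p = 0.600, limma), with means of 70.6 ± 5.57 and 87.1 ± 30.8 FPKM (SD, n = 3). On the opposite strand, 21.3% of its exon bases lie in exons of AC136475.5, which was at 0 in all libraries, and strand is not stated for the counting.

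IFITM2 (ENSG00000185201, chr11:307631-315272, plus strand), the endosomal relative of IFITM3, had few reads, between 5 and 18 per library. It was at 0.654, 0.467 and 0.755 FPKM in shNC and at 0.488, 0.237 and 0.399 FPKM in shScamp1 libraries. The groups overlapped, and in a fit with no filter its log2 fold change was -0.63 (SE 0.33, adjusted p = 0.385, limma). It passed the filter in 4 fits with a library left out. Its log2 fold changes there were -0.80 to -0.40 (adjusted p from 0.236 to 0.432, limma). IFITM2 shares sequence with its neighbours: 34.1% of its 50-base stretches also occur in other genes, as do 32.0% of those of IFITM1 and 17.4% of those of IFITM3. In addition, 22.7% of the exon bases of IFITM2 lie in exons of IFITM1 on the same strand, and 32.5% of those of IFITM1 in exons of IFITM2. The division of reads between these genes is therefore uncertain.

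The ratio of IFITM1 to IFITM3 within a library, on the log2(FPKM + 0.1) scale, was -1.22 ± 0.07 in shNC and -1.17 ± 0.22 in shScamp1 cells (SD, n = 3), a difference of 0.05 (two-sided exact permutation test, p = 0.8). Both genes thus kept their order in each group, with IFITM3 higher. The ratio of IFITM2 to IFITM3 went from -6.63 ± 0.29 to -7.49 ± 0.17 (two-sided exact permutation test, n = 3, p = 0.1, or 0.133 adjusted over 4 ratios). This difference was -0.86, and -0.48 with a pseudocount of 1. With 3 libraries against 3, 0.1 is the smallest p that this test can give.

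BST2 (ENSG00000130303, chr19:17402939-17405648, minus strand), the tether of budding virions, had the highest level of the 10 genes in shNC cells. It was at 192, 180 and 196 FPKM in shNC and at 275, 157 and 262 FPKM in shScamp1 libraries. Replicate 2 of shScamp1 lay below all shNC libraries and the other shScamp1 libraries lay above them. The log2 fold change was 0.25 (SE 0.22, 95% interval -0.27 to 0.77, adjusted p = 0.477, limma), with means of 189 ± 8.0 and 232 ± 64.6 FPKM (SD, n = 3).

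RSAD2 (ENSG00000134321, chr2:6865806-6898239, plus strand), which makes a chain-terminating nucleotide from CTP, was at 0.326, 0.521 and 0.455 FPKM in shNC and at 2.95, 3.48 and 3.22 FPKM in shScamp1 libraries. It rose from the lowest level of the 10 genes in shNC cells, in every shScamp1 library, and was the only one of the 10 with its highest value in shScamp1 replicate 2. The log2 fold change was 2.65 (SE 0.18, 95% interval 2.21 to 3.09, adjusted p = 0.000696, limma), and the ratio of means was 7.40. The reads behind these values ranged from 25 to 230 per library. CMPK2, a mitochondrial nucleotide kinase that forms a head-to-head gene pair with RSAD2, rose as well, from 0.461 ± 0.048 to 2.31 ± 0.115 FPKM (SD, n = 3; log2 fold change 2.11, adjusted p = 0.000699, limma).

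IFI44 and IFI44L are paralogs on chromosome 1 with 3651 bases between them. IFI44L (ENSG00000137959, chr1:78619922-78646145, plus strand), for which a damping effect on the interferon response has been described, was at 0.622, 0.551 and 0.575 FPKM in shNC and at 3.90, 3.72 and 4.10 FPKM in shScamp1 libraries. The libraries of a group lay close together and the groups far apart, at a 6.71-fold ratio of means (log2 fold change 2.55, SE 0.11, 95% interval 2.29 to 2.82, adjusted p = 0.000168, limma). IFI44 (ENSG00000137965, chr1:78649796-78664078, plus strand) was at 16.0, 16.5 and 16.0 FPKM in shNC and at 49.6, 32.0 and 44.6 FPKM in shScamp1 libraries.

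IFI44 also rose, at a 2.60-fold ratio of means (log2 fold change 1.35, SE 0.16, 95% interval 0.96 to 1.74, adjusted p = 0.00404, limma), and its replicate 2 was the lowest shScamp1 library. IFI44 was the more abundant paralog in every library. The log2 ratio of IFI44L to IFI44 changed from -4.58 ± 0.10 to -3.37 ± 0.29 (SD, n = 3), so the rise of IFI44L was larger by 1.21 on the log2 scale (two-sided exact permutation test, p = 0.1, the smallest it can give). That difference was 0.33 with a pseudocount of 1, since IFI44L was below 1 FPKM in shNC cells. The fold changes of IFI44L and RSAD2 themselves were 1.63 and 1.56 on the log2 scale with that pseudocount.

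IFI35 (ENSG00000068079, chr17:43006725-43014456, plus strand), a leucine zipper protein that binds NMI, was at 13.0, 12.9 and 14.3 FPKM in shNC and at 19.5, 18.8 and 19.5 FPKM in shScamp1 libraries. Its rise was the smallest of the 5 called, with all shScamp1 libraries within 1 FPKM of each other. The log2 fold change was 0.53 (SE 0.07, 95% interval 0.36 to 0.69, adjusted p = 0.00584, limma). Its partner NMI, at 7.62 ± 0.181 and 7.87 ± 1.09 FPKM (SD, n = 3), had a log2 fold change of 0.04 (adjusted p = 0.857, limma).

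**Figure D3:**
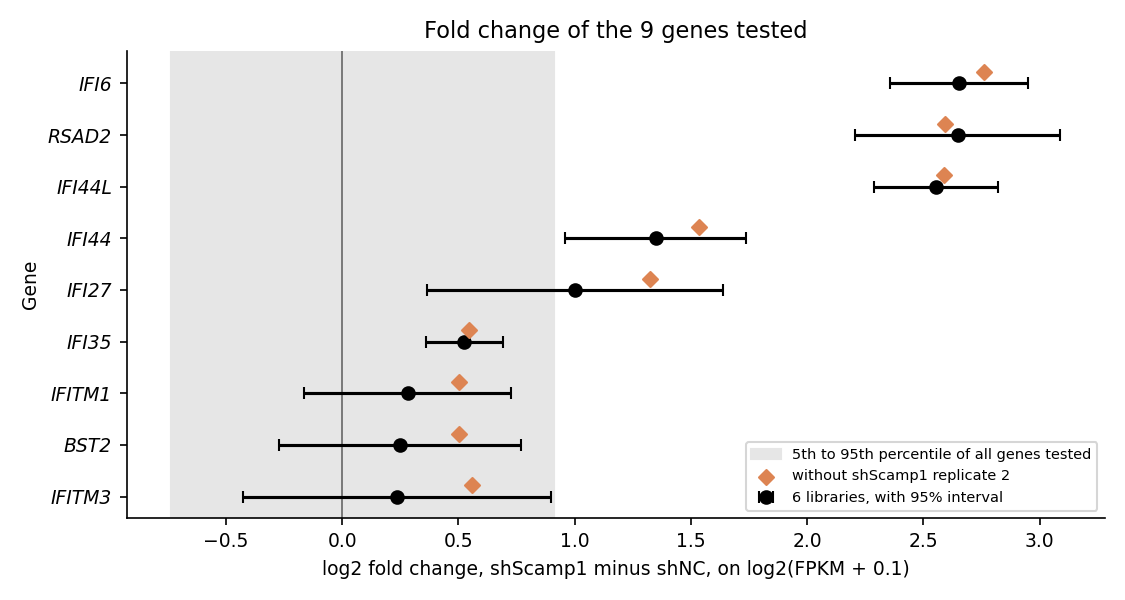
Log2 fold change of the 9 genes tested, shScamp1 minus shNC on log2(FPKM + 0.1), with 95% intervals for 6 libraries (circles), the values without shScamp1 replicate 2 (diamonds) and, shaded, the 5th to 95th percentile of all genes tested, -0.74 to 0.91. IFI6, RSAD2 and IFI44L stand between 2.55 and 2.65, and the intervals of IFITM1, IFITM3 and BST2 include 0.

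The 10 genes spanned more than 2 orders of magnitude in FPKM, a level that depends on the gene length used. In shNC cells the order of mean FPKM was BST2, IFITM3, IFI27, IFI6, IFITM1, IFI44, IFI35, IFITM2, IFI44L and RSAD2. Of neighbours in that order, the library ranges overlapped for IFITM2 and IFI44L alone. In shScamp1 cells the order was IFI6, BST2, IFI27, IFITM3, IFI44, IFITM1, IFI35, IFI44L, RSAD2 and IFITM2. There the ranges overlapped for IFI6 and BST2, for IFI27 and IFITM3, and for IFI44 and IFITM1. Summed over the 10 genes, the level was 410 to 432 FPKM in shNC and 607 to 965 FPKM in shScamp1 libraries. Genes with a higher shNC level had smaller log2 fold changes, as a description over the 9 genes tested in the same 6 libraries (Spearman's rho -0.62). The shNC level is itself part of the fold change, and the filter kept RSAD2 through its shScamp1 level and left IFITM2 out. This rho therefore cannot show a relation between level and response.

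The shScamp1 libraries differed among themselves for these genes. Replicate 2 was the lowest of the 3 shScamp1 libraries for 9 of the 10 genes, and for 44.2% of all genes tested. On the log2 scale, replicate 2 minus the mean of replicates 1 and 3 was -0.98 for IFITM3, -0.97 for IFI27, -0.77 for BST2, -0.66 for IFITM1 and -0.55 for IFI44, against a median of -0.02 and a 5th percentile of -0.96 over all genes. It was -0.32 for IFI6, -0.10 for IFI44L, -0.06 for IFI35 and 0.17 for RSAD2. The difference was more negative for genes with a higher shNC level (Spearman's rho -0.88 over the 9 genes tested, as a description in shared libraries). Among the 23 other antiviral effector genes tested, such as IFIT1, OAS2 and MX1, replicate 2 was the lowest for 7, and their median difference was 0.26.

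When shScamp1 replicate 2 was left out, all of the 9 genes were called higher, against 14.9% of all genes in that fit. IFITM2 passed the filter there too and was not called (log2 fold change -0.40, adjusted p = 0.432, limma), so the 9 called were out of 10 tested. The log2 fold changes were then 0.50 for IFITM1 (adjusted p = 0.00116, limma), 0.56 for IFITM3 (adjusted p = 0.00832) and 0.50 for BST2 (adjusted p = 0.00147). Those of IFI6, IFI44L, RSAD2, IFI44 and IFI35 were 2.76, 2.59, 2.59, 1.53 and 0.54. Several measures moved with this library. Its mitochondrial share was the highest, as given above, and over all genes its median difference from replicates 1 and 3 went from 0.09 in the genes of lowest GC content to -0.15 in those of highest GC content, with genes divided into 4 equal groups. In the 1253 genes with a GC content of at least 50% and an shNC level of at least 20 FPKM, where IFI6, IFI27, IFITM1, IFITM3 and BST2 belong, the median was -0.23 and the 5th percentile -1.01. With genes divided into 4 groups by length, from short to long, the medians were -0.09, -0.21, -0.01 and 0.18, and IFI6, IFITM1, IFITM3 and BST2 belong to the shortest group. Single genes spread widely around these medians, with quartiles of -0.19 and 0.33 at the lowest GC content and -0.46 and 0.14 at the highest. IFI44, at -0.55, is in the group of lowest GC content, and IFI35, at -0.06, in that of highest. IFI27, at -0.97, is in length group 3, of median -0.01. Over the 9 genes tested, Spearman's rho with this difference was -0.23 for GC content and 0.35 for length. With trends with GC content and length removed from all 6 libraries, 6 of the genes were called higher, IFI27 being added. IFITM1 then had a log2 fold change of 0.39 (adjusted p = 0.103, limma), IFITM3 of 0.36 (adjusted p = 0.242) and BST2 of 0.36 (adjusted p = 0.141), and these were not called. The part of GC content, length, level and mitochondrial share in the values of these genes was not tested.

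**Figure D4:**
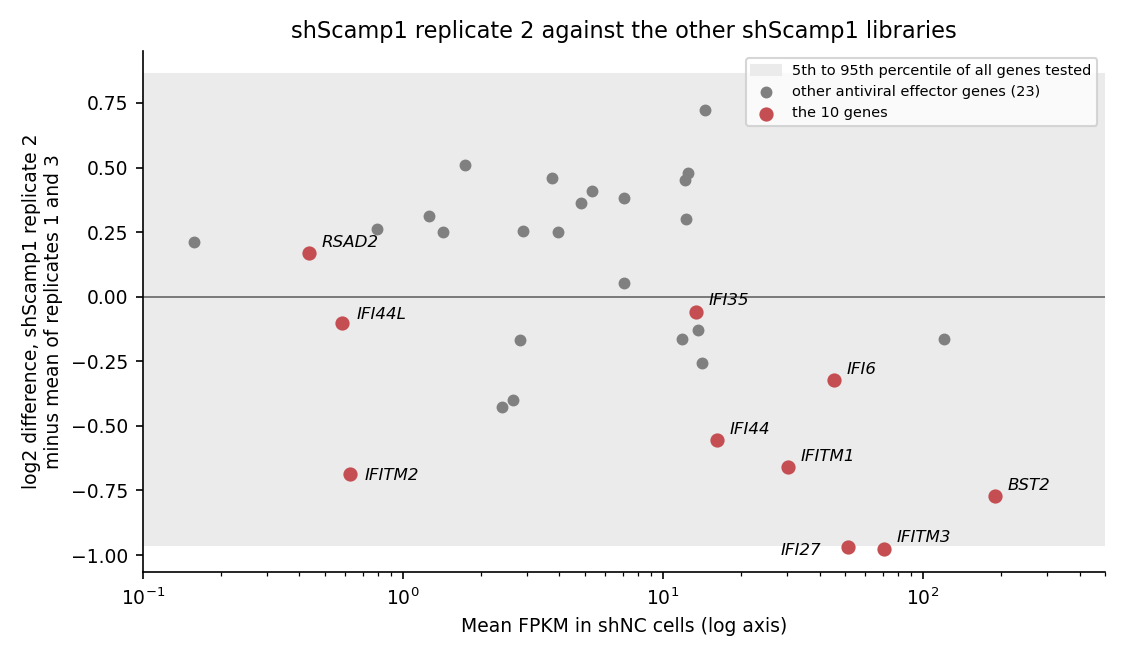
Log2 difference between shScamp1 replicate 2 and the mean of replicates 1 and 3 (y axis) against mean FPKM in shNC cells (log axis) for the 10 genes and for the other antiviral effector genes, with the 5th to 95th percentile of all genes shaded. IFI27 and IFITM3 lie at the lower edge of the shaded range, and the effector genes lie mostly above 0.

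The rest of the interferon pathway was read from 104 other genes in the table, of which 69 were tested. Of these, 44 were called higher, with a median log2 fold change of 0.78. Of the 69, 0 were called lower by limma, against 1 at an unadjusted p under 0.05 and 1 with voom. The gene lists were assembled with earlier results of these data known. The counts are read beside the 8.82% of all genes called higher.

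Among 21 genes for interferons, IFNE, an epithelial type I interferon, was the one that passed the filter, and it rose from 1.2 ± 0.286 to 3.15 ± 0.517 FPKM (SD, n = 3; log2 fold change 1.34, adjusted p = 0.00942, limma). IFNB1 had at most 1 read and IFNL1 at most 12 reads in a library, and 9 of the 21 were at 0 in all libraries. Of 6 receptor chains, IFNAR2 (means of 0.19 FPKM in shNC and 0.27 in shScamp1 cells) and IL10RB (0.13 and 0.17) did not pass the filter. Of the receptors, 3 of 4 tested were called higher. These were IFNAR1 (log2 fold change 0.78, adjusted p = 0.00903), IFNLR1 (0.76, adjusted p = 0.0106) and IFNGR1 (0.54, adjusted p = 0.0408), while IFNGR2 had 0.16 (adjusted p = 0.444, all by limma). The count of receptors fell to 0 without shNC replicate 1 and 1 without shNC replicate 2.

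Among the kinases and transcription factors that carry the signal, STAT2 rose by 1.2 on the log2 scale (adjusted p = 0.00051, limma) and IRF7, which amplifies interferon production, by 1.42 (adjusted p = 0.000547). IRF9, the DNA-binding part of the ISRE complex, had a log2 fold change of 0.52 (adjusted p = 0.111), IRF1 of 0.46 (adjusted p = 0.0811) and IRF2 of 0.35 (adjusted p = 0.0503). JAK1, JAK2, TYK2, IRF3 and IRF5 were between -0.21 and 0.24.

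The feedback list had 7 tested genes, which were genes of negative feedback and UBE2L6, the ISG15-conjugating enzyme. USP18, which blocks the type I receptor, rose by 0.99 on the log2 scale (adjusted p = 0.00169, limma) and UBE2L6 by 0.54 (adjusted p = 0.0202). SOCS3 had -1.12 (adjusted p = 0.096), and PIAS1, PTPN2, PTPN6 and PTPN11 had between -0.02 and 0.29. The count called higher in this list was 1 without any single library other than shScamp1 replicate 2, and 3 without that library. Of 8 sensors of viral nucleic acid and their adaptors and kinases, 5 were called higher. These were the RNA sensors DDX58 (RIG-I) at 1.62 (adjusted p = 0.00051), DHX58 at 1.00 (adjusted p = 0.015) and IFIH1 at 0.95 (adjusted p = 0.0053), the adaptor TMEM173 at 0.40 (adjusted p = 0.0192) and the kinase TBK1 at 0.49 (adjusted p = 0.0069). That count was 3 without any single shNC library or without shScamp1 replicate 3. With a replicate block it was also 3, and the count in the feedback list was 1.

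Of the effectors, 21 of 23 tested were called higher, with a median log2 fold change of 1.27. OAS2 (2.55), MX1 (2.53), SAMD9L (2.36) and MX2 (2.33) had the largest changes among them, beside 2.65 for IFI6, 2.65 for RSAD2 and 2.55 for IFI44L. Of 5 other interferon-stimulated membrane or lipid-associated genes, 3 rose, which were APOL1 (1.24, adjusted p = 0.00145, limma), APOL2 (0.91, adjusted p = 0.00188) and TMEM140 (0.48, adjusted p = 0.0444). All 5 were called without shScamp1 replicate 2 and with GC and length trends removed, and 2 with no filter, with scaling by total reads, with voom, with no trend, with the block, without any single shNC library or without shScamp1 replicate 3. Of 10 genes that lean towards interferon gamma, 4 were tested. GBP2 (1.52), GBP4 (1.52) and GBP1 (0.58) rose, and HLA-DRA had -0.33 (adjusted p = 0.407). The rest did not pass the filter. Among them, CXCL9 had 0 reads, CXCL11 and IDO1 at most 1 and CXCL10 at most 6 in a library.

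Of 6 relatives of the 10 genes that were tested, CMPK2, IFI16 (1.48, adjusted p = 0.00121, limma) and IFITM10 (1.00, adjusted p = 0.00349) rose. IFI27L1 and IFI27L2, the neighbours of IFI27 on chromosome 14, had log2 fold changes of -0.18 (adjusted p = 0.609) and -0.82 (adjusted p = 0.176). IFITM5, beside the IFITM cluster, was at 0 in all shNC libraries and had at most 9 reads in a shScamp1 library.

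**Figure D5:**
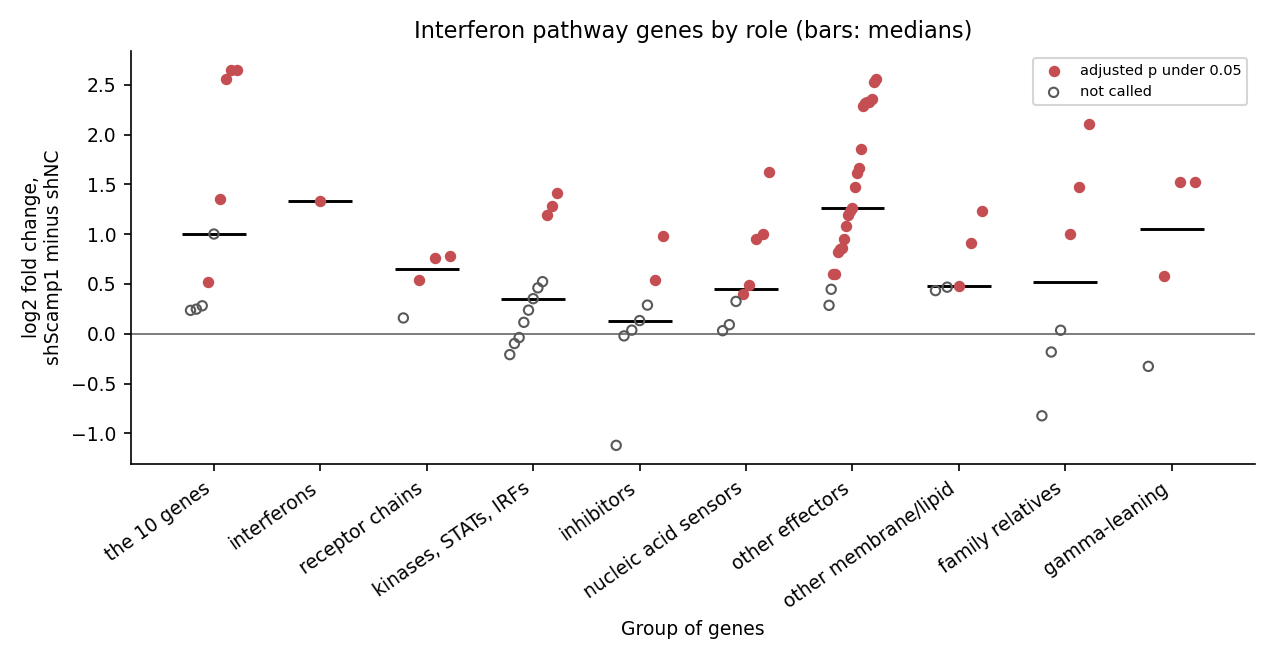
Log2 fold change (shScamp1 minus shNC) of interferon pathway genes by role, with filled points for adjusted p under 0.05, open points for genes not called and bars for medians. The effectors have the highest count, 21 of 23 called, with a median of 1.27.

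Genes next to the 10 on the chromosome were examined as well. There were 14 distinct protein-coding neighbours outside the 10 genes, and 8 were tested. Of these, 0 were called by limma in either direction, against 1 higher and 2 lower at an unadjusted p under 0.05, and 0 higher and 1 lower with voom. MVB12A, 74 bases from BST2, had a log2 fold change of -0.24 (adjusted p = 0.198), and VAT1, 149 bases from IFI35, had 0.21 (adjusted p = 0.22).

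Finally, the pattern of the 9 genes tested over the 6 libraries was summarised by their mean centred log2 level, which was -0.70, -0.62 and -0.60 in shNC and 0.82, 0.32 and 0.77 in shScamp1 libraries. Among the 7048 genes that averaged 5 FPKM or more, the 5 most like this profile were ALDH1A1, PLSCR1, GDF15, TMEM79 and SFXN3, each with Pearson's r = 0.999 over 6 libraries, as a description. With 2 groups this far apart, 92 genes had r above 0.99. ALDH1A1 was at 109, 111 and 111 FPKM in shNC and at 242, 184 and 242 FPKM in shScamp1 libraries. Its lowest shScamp1 value was in replicate 2, which follows from its selection for likeness to this profile.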

How the data were processed

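The authors deposited FPKM values for 58735 genes in 6 libraries, with gene coordinates that matched GENCODE 29 (GRCh38). The study's methods state that sequencing and analysis were done by a service company. The submitters' processing notes list HISAT2 2.0.5, featureCounts 1.5.0-p3, DESeq2 1.20.0 and hg38, with no roles. Whether counting used strand is not given in the sources used here. Multiplied by gene length, 100% of the deposited FPKM values above 0 were whole multiples (tolerance 0.01) of a step particular to their library, and this returned the reads behind each value. Depth limits the genes with few reads.

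Groups were taken from the sample titles. Genes averaging 0.5 FPKM or more over the 6 libraries were tested with limma 3.58.1 (lmFit, eBayes with trend; R 4.3.3) on log2(FPKM + 0.1), with Benjamini-Hochberg adjustment over 15556 genes. Fold changes of low genes are understated on this scale. The code was tested on simulated data. The design foresaw a count table or FPKM, and FPKM was found. Alternatives were other pseudocounts (0.01 and 1), filters and scalings, voom on recovered reads, no trend, protein-coding genes only, a replicate block, each library left out and, chosen after seeing the data, removal of GC and length trends. Ratios were compared with exact permutation tests. Motifs were searched in RefSeq promoter windows with Python 3.11.15. The named genes were the 10 genes, SCAMP1, the tested interferon, receptor, transducer and feedback genes, up to 4 called genes of each other list by size of change, nearest protein-coding neighbours and the 5 most similar profiles. Any further gene was picked with its values in view. The genes and lists were chosen with earlier results of these data known. Some genes of these lists are not reported here.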

Additional observations from a re-analysis of the deposited data

How the results depend on the processing

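IFI6, IFI35, IFI44, IFI44L and RSAD2 stayed called higher under every alternative run, with each library left out and with a replicate block. The count of the 10 genes called was 5 to 9 with a library left out, the 9 being without shScamp1 replicate 2, and 5 or 6 otherwise. SCAMP1 ranged from -2.92 to -2.29. The difference in the ratio of IFITM1 to IFITM3 was between -0.060 (without shScamp1 replicate 2, where its sign turned) and 0.16 (without shScamp1 replicate 1), and the cause was not tested. Over all genes, 1372 were called higher and 805 lower. With a library left out these counts ran from 651 to 2296 and from 166 to 2078. The highest values came without shScamp1 replicate 2, and without any single shNC library or shScamp1 replicate 3 the higher calls numbered at most 715. At an unadjusted p they were 2498 and 2284. Lower calls were 514 with no filter, 1266 with scaling by total reads and 1655 with voom. Relative to total reads on genes, the deposited values were scaled by 0.969 to 0.985 in shNC and by 1.01 to 1.06 in shScamp1 libraries. The median log2 fold change over all genes was -0.022 in the main fit and -0.095 both with scaling by total reads and with voom. The cause of the differing counts was not tested. Same-numbered libraries did not deviate together (r from -0.04 to 0.07), so there was no sign that the numbers pair the samples. With 3 libraries per group, these correlations cannot exclude a pairing. With the replicate block 704 genes were called higher and 254 lower, and not every library correlated best with its own number. Depth limited IFITM2, at 5 to 18 reads per library.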
